A study of [Candida] boidinii with 12 samples.

Results

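Of the 5712 transcript rows measured in the methylotrophic yeast Candida boidinii, 98 made up the group described here. These rows rose on methanol in the engineered strain LA001-14, while their change in wild type stayed within a set band. They were chosen on the measured values themselves. Each library's counts were expressed as CPM, the count per 1000000 counts of that library, and the 5034 rows other than LDH with a mean count of at least 50 over the 12 libraries were kept. The log2 ratio of the group means on methanol to those on glucose, with a pseudocount of 1, was taken in LA001-14 (L) and in wild type (W), and the median over the kept rows was subtracted from each. Members had an L of at least 1 and a W between -0.8 and 0.8. The band for W leaves room for a rise or a fall in wild type. The files give these genes by identifier only, without a name, a position or a function, so no pathway can be assigned to any of them here.

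Methylotrophic yeasts burn methanol in peroxisomes, where alcohol oxidase turns it into formaldehyde. Part of the formaldehyde is fixed into sugar phosphates by dihydroxyacetone synthase, and part is oxidised to carbon dioxide through formate for energy. The genes of this pathway are known for being shut off on glucose and strongly switched on by methanol, and the change of carbon source also draws in peroxisome formation, respiration and gluconeogenesis. Lactate dehydrogenase, the enzyme added to LA001-14, takes pyruvate and NADH to lactate and NAD.

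There were 4 groups of 3 libraries, all labelled 6 h. They were wild type CICC#33029 in YPD with 2% (w/v) glucose (WT-Glu), the same wild type in YPM with 2% methanol (WT-Met), and LA001-14 in each medium (LA-Glu and LA-Met). LA001-14 was made from this wild type and holds 2 added cassettes at random places in the chromosomes, PENO1-BtL-LDH-TTEF2 for lactate dehydrogenase and PTDH3-KanR-TTEF2 for kanamycin resistance. All 12 libraries share the wild-type background. LA001-14 is a single strain, so the added enzyme, the resistance marker and the insertion sites cannot be told apart as sources of a strain difference. Libraries held 8045977 to 14107813 counts. Pairs of replicates differed by more than counting noise, with a chi-square per degree of freedom of 4.03 to 32.3, and replicate 1 of WT-Glu lay farthest from its group (25.03 and 32.3 against the other replicates, which differed by 5.59 from each other). Without that library the rule gave 96 members, of which 93 were among the 98. Nothing in the labels states that the biological replicates came from separate cultures, and the p-values reflect only how far these libraries differ.

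An L of 1 or more was found for 288 of the 5034 kept rows. In 158 of these W was 0.8 or more, so they rose in wild type as well, and in 32 it was -0.8 or less. The remaining 98 are the members. The mirrored choice, with W of at least 1 and L within 0.8 of 0, held 396 rows. Values of L among the members ran from 1.00 to 6.42 with a median of 1.23 and quartiles of 1.07 and 1.38. Most members therefore lay close to the threshold: 81 had an L under 1.5, 32 of them under 1.1, and 4 reached 2. The values of W had a median of 0.10 and quartiles of -0.16 and 0.42. They were above 0 in 59 members and below 0 in 39, and 70 lay within 0.5 of 0. These values chose the members and carry no test.

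The thresholds cut through a continuous cloud of values. The member with the lowest L had an L of 1.001 and a W of 0.62, and the nearest row left out had an L of 0.993 and a W of 0.50. At the upper bound of W, a member stood at W = 0.784 and L = 1.28, and the next row outside at W = 0.803 and L = 1.25. At the lower bound the values were W = -0.787 and L = 1.33 inside, and W = -0.82 and L = 1.13 outside.

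**Figure D1:**
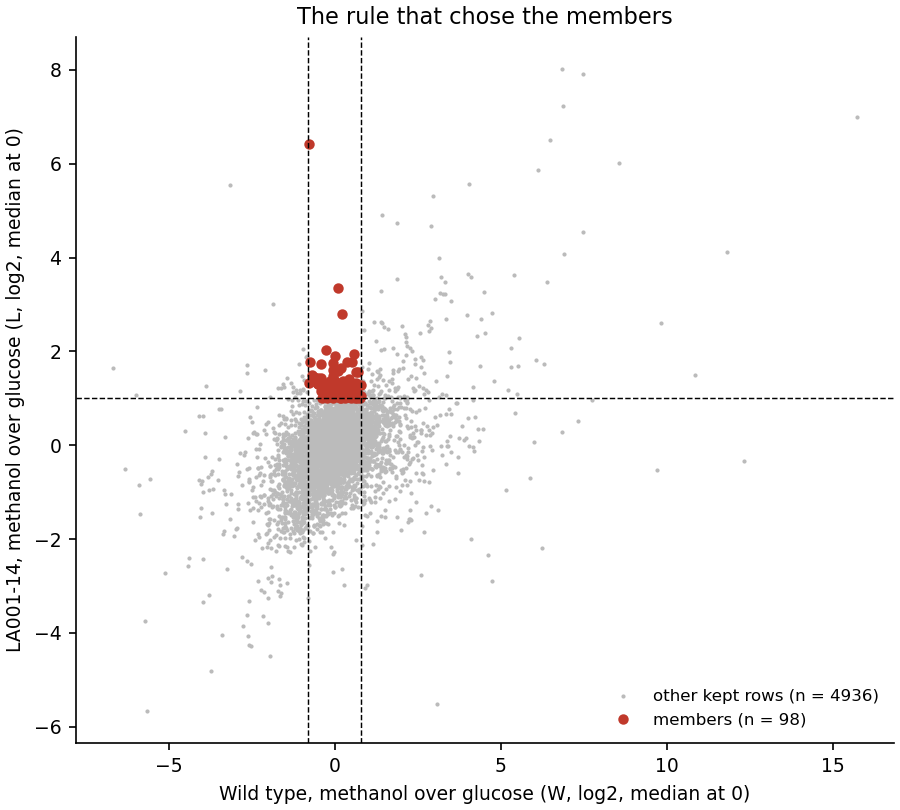
Log2 ratio of methanol to glucose in LA001-14 (vertical axis) against wild type (horizontal axis) for the 5034 kept rows, each with the median over the rows set to 0. Dashed lines are the thresholds of the rule, and the 98 members (red) sit mostly just above the threshold of 1, with a single point at 6.42.

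The label of the group, raised on methanol in LA001-14 only, comes from the rule. A test of the difference between the strains' responses was set beside it. That test cannot show that wild type did not rise, since a gene that rises in both strains by different amounts can pass it. In edgeR's quasi-likelihood fit to all 12 libraries, with Benjamini-Hochberg adjustment over 5466 rows, the methanol response was higher in LA001-14 at an adjusted p under 0.05 for 93 of the 98 members and lower for 0. Over all rows tested, 30.8% were higher and 27.9% lower. The rule used the same ratios, so this count describes the members and is not evidence for them. It was 92 without replicate 1 of WT-Glu, where 29.2% of all rows were higher. The difference of the other 5 members did not pass the test, with adjusted p from 0.0711 to 0.477 and log2 differences of 0.32 to 0.89. Wild type's methanol libraries all lay above its glucose libraries in 38 members, close to the 37.9% of kept rows that did so, and all lay below them in 17, where 36.4% of kept rows did so. The rule bounds this ratio, and nothing is read from these counts about the members. Wild type overlapped between the carbon sources in the other 43, which the bound on W favours, and nothing is read from this count either. In LA001-14 the libraries of both carbon sources were apart in all 98 members, with methanol above glucose, which the rule favours and which held for 39.0% of kept rows.

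As a share of all counts, the 98 members were lowest in LA001-14 on glucose and highest in LA001-14 on methanol. The 3 WT-Glu libraries gave them 3.29%, 3.40% and 3.42%, and the 3 WT-Met libraries 3.24%, 3.17% and 3.23%. The LA-Glu libraries gave 1.85%, 1.82% and 1.84%, and the LA-Met libraries 4.76%, 4.77% and 4.82%. Both wild-type groups lay between the LA001-14 groups. The rise in LA001-14 and the near-level shares in wild type follow from the choice of members, so these shares are a description of their weight in each library. The group means were 3.37% ± 0.071, 3.21% ± 0.039, 1.84% ± 0.013 and 4.78% ± 0.031 (SD, n = 3 each). The 95% exact (Clopper-Pearson) intervals of the single libraries were at most 0.029 percentage points wide and cover counting error only. The 3 members with the highest L took 0.481% ± 0.0082 of the LA-Met counts, against 0.0446% ± 0.0054, 0.0464% ± 0.0011 and 0.0468% ± 0.0047 in WT-Glu, WT-Met and LA-Glu. The other 95 went from 1.79% ± 0.013 to 4.30% ± 0.023 in LA001-14 and stood at 3.33% ± 0.075 and 3.17% ± 0.038 in wild type. Their counts were unevenly spread. In CPM scaled as described below, the highest of them in WT-Glu stood at 8935 in WT-Glu and 7667 in WT-Met. In LA-Glu and LA-Met it stood at 2815 and 7332. The next, CB1727.t1, stood at 4096, 6757, 2899 and 6511 in the same order of groups. A share of reads is relative to the rest of the library, so the amount of a transcript per cell was not measured.

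**Figure D2:**
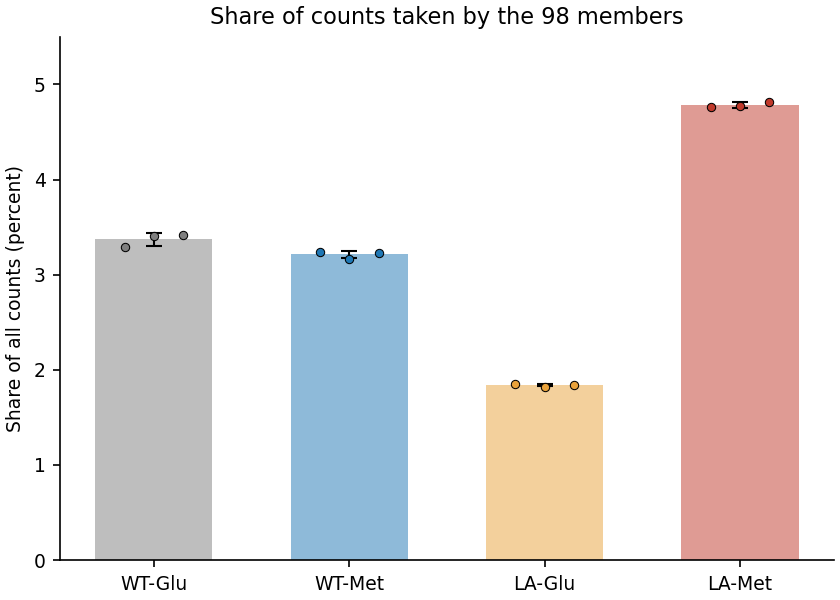
Percent of all counts in each library that fell on the 98 members, by group (points are libraries, bars their mean, error bars the SD, n = 3). LA-Glu sits at 1.82% to 1.85% and LA-Met at 4.76% to 4.82%, on either side of both wild-type groups.

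The order of the 4 group means is given here as a description, since the rule was applied to the same means. LA-Glu had the lowest group mean of all 4 groups in 89 members (90.8%, against 32.3% of kept rows), while LA-Met had the highest in 57 (58.2%, against 18.1%). WT-Met had the highest mean in 25 members (25.5%, against 35.5% of kept rows) and WT-Glu in 16 (16.3%, against 18.3%). The LA-Glu libraries lay below all other 9 in 81 members, where 18.2% of kept rows did so. The LA-Met libraries lay above all other 9 in 46 members, where 8.12% of kept rows did so. The median level of the members, in CPM scaled by the trimmed mean of M-values (TMM), was 96.7 in WT-Glu, 92.2 in WT-Met, 43.9 in LA-Glu and 121 in LA-Met, while the median of all kept rows stayed between 55.0 and 58.2. The rule favours a low LA-Glu value and a high LA-Met value alike, and it does not set how the difference divides between them.

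On glucose, 85 members were called lower and 3 higher in LA001-14 relative to wild type, where 31.7% and 30.9% of all tested rows were (edgeR, adjusted p under 0.05). On methanol, 46 were called higher and 20 lower, where 32.8% and 32.9% of all tested rows were. Scaling by library totals alone made the methanol split 64 higher and 9 lower, where 47.2% and 20.6% of all rows were. Without replicate 1 of WT-Glu the counts were 83 lower and 3 higher on glucose, where 29.0% and 33.6% of all rows were. On methanol they were 49 higher and 21 lower, where 34.7% and 32.7% of all rows were. These comparisons share libraries with the rule, which pushes the glucose difference down and the methanol difference up, so nothing is read from the counts by themselves. The median log2 difference of the members was -0.98 on glucose (quartiles -1.47 and -0.65) and 0.23 on methanol (quartiles -0.19 and 0.62). With library totals these medians were -0.77 and 0.51, while the median of all rows moved to 0.23 on glucose and 0.28 on methanol. In 74 of the 98 the glucose difference was the larger in size by TMM, which held for 47.1% of kept rows. The methanol difference lay above the glucose difference in all 98 members, to which the kept rows were not held. For the members this count therefore restates a strain average below 0, given further on, and is no separate result. On methanol 57 members were within 0.5 of wild type on the log2 scale (58.2%, against 54.3% of kept rows), and on glucose 18 were (18.4%, against 57.4%).

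The members were sorted by these strain differences into 4 sub-patterns, taking a difference of 0.5 on the log2 scale of group mean TMM-scaled CPM + 1 as the limit. The largest, with 59 members, was lower in LA001-14 on glucose without being higher on methanol, and had median differences of -1.18 on glucose and -0.06 on methanol. Of these, 48 stood within 0.5 of wild type on methanol and 11 were lower there too. In 18 members LA001-14 was both lower on glucose (median -0.82) and higher on methanol (median 0.74). In 12 it was higher on methanol (median 1.28) with little or no deficit on glucose (median -0.03, from -0.42 to 1.12). The last 9 passed neither limit, and their median W of 0.62 was the highest of the 4. The definitions favour this, since an L of at least 1 without a large strain difference leaves W high. The sub-patterns are descriptions with no test. The share of all kept rows that would fall in each was not counted, so nothing is read from their sizes about the members. Their sizes hold for TMM scaling and depend on it, and they were not counted with library totals. With library totals the members' median difference on methanol was 0.51, past the limit of 0.5, against 0.23 by TMM.

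**Figure D3:**
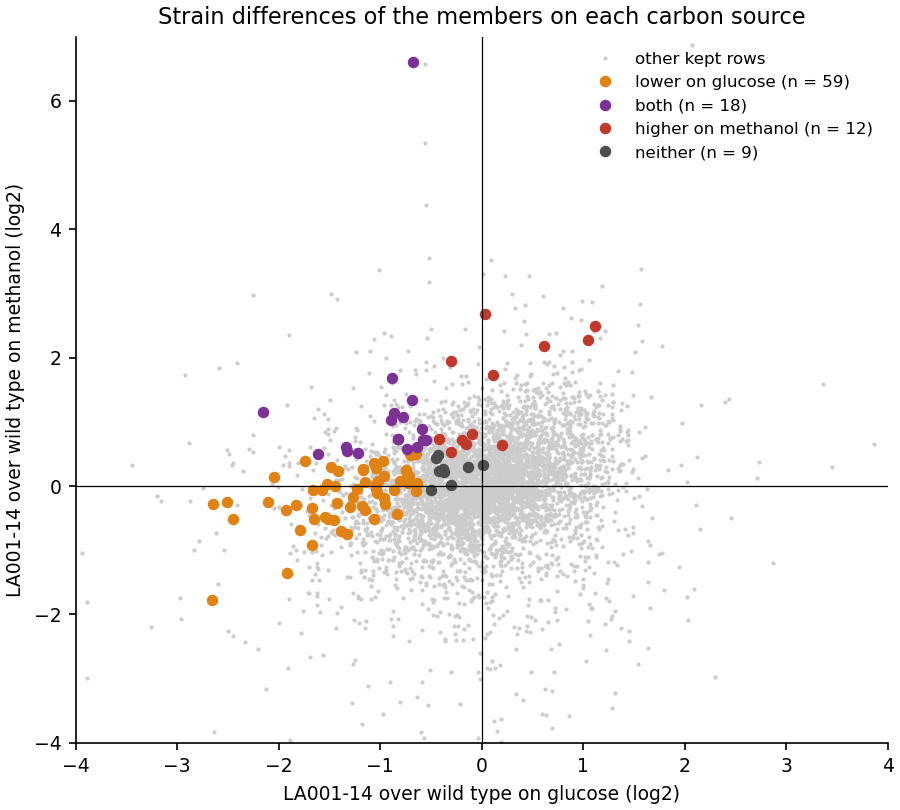
Log2 difference between LA001-14 and wild type on glucose (horizontal axis) and on methanol (vertical axis), with the members coloured by sub-pattern and other kept rows in grey (39 of those lie outside the axes). By TMM scaling, the 59 members of the largest sub-pattern lie to the left of 0. Their methanol differences run from -1.77 to 0.50, with a median of -0.06.

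A measure that the rule did not use is the strain difference averaged over both carbon sources, whose contrast is orthogonal to the methanol contrasts within the strains. By this measure the members were mostly lower in LA001-14. In edgeR, with adjusted p under 0.05 over 5466 rows, 62 of the 98 members were lower in LA001-14 (63.3%, against 34.5% of all rows), 13 were higher (13.3%, against 33.5%) and 23 were not called. The median log2 difference was -0.38 for the members and -0.01 for all rows, and 74 members were below 0 and 24 above. Without replicate 1 of WT-Glu, 60 members were lower and 18 higher, where 32.9% and 36.9% of all rows were. Among the called members 17 were lower by at least 1 on the log2 scale (17.3%, against 6.97% of all rows) and 5 were higher by as much (5.10%, against 5.85%). All 6 LA001-14 libraries lay below all 6 wild-type libraries in 14 members, where 6.89% of kept rows did so, and above them in 3, where 5.44% did so.

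This direction depended on the scaling in its counts but not in the members' place among all rows. When only library totals were used the median of all rows moved to 0.24, the members' median to -0.13, and the calls to 45 lower and 29 higher, where 20.7% and 50.6% of all rows were lower and higher. Relative to the median of all rows, the members' median was -0.37 under both scalings. TMM factors were 0.874 to 0.887 in WT-Met and 0.903 to 1.03 in WT-Glu, and 1.03 to 1.15 over the LA001-14 libraries.

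A lower strain average was also found in other lists chosen on the methanol ratios. Among the 190 other rows with an L of at least 1 it was lower in 117 (61.6%) and higher in 40 (21.1%), with a median of -0.47. Among the 396 rows of the mirrored rule it was lower in 261 (65.9%) and higher in 46 (11.6%), with a median of -0.46. The differences between the lists were not tested, and the lower strain average is not particular to the 98 members.

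**Figure D4:**
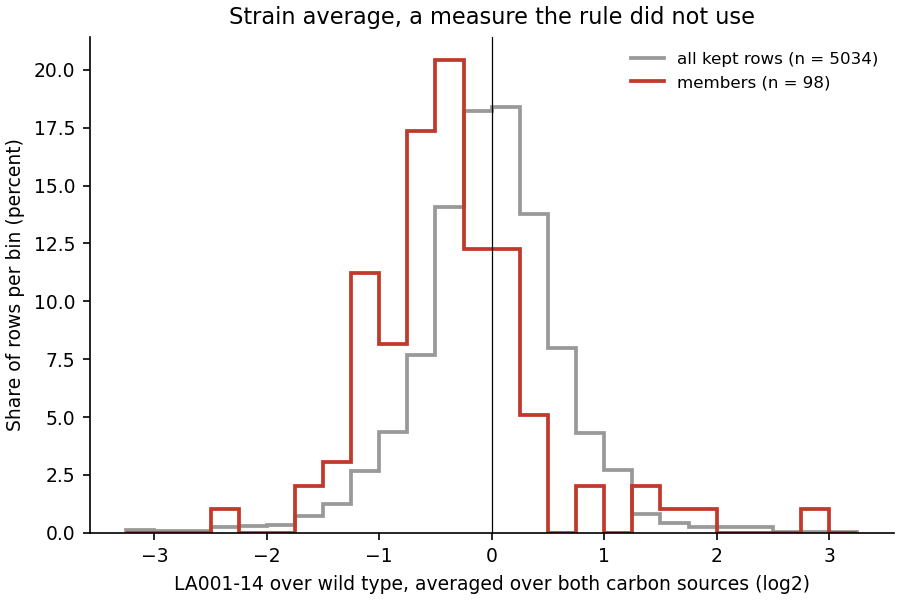
Distribution of the log2 difference between LA001-14 and wild type averaged over both carbon sources, as percent of rows per bin, for the 98 members (red) and all 5034 kept rows (grey, of which 29 lie outside the axis). The members are shifted to the left, with a median of -0.38, and a few stand to the right of 1.

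CB3810.t1 (coding length 1698 bases) had the highest L of all members. Its level was 20.8, 19.9 and 34.2 CPM in the WT-Glu libraries, 13.8, 12.3 and 16.2 CPM in WT-Met, 15.1, 16.0 and 14.7 CPM in LA-Glu, and 1566, 1387 and 1452 CPM in LA-Met (TMM-scaled). The LA-Met libraries stood far above all others, and WT-Met and LA-Glu overlapped. L was 6.42 and W was -0.77, close to the lower bound of the rule, so its wild-type mean was lower on methanol. The strain average of CB3810.t1, the highest of the called members, was a log2 difference of 3.00 with an SE of 0.14 (edgeR adjusted p = 1.53e-13). It was made up of -0.70 on glucose and 6.70 on methanol, so it rests on the LA-Met level that also gave the high L. It is no separate result for CB3810.t1. Per length, in the authors' FPKM, which divides the count by coding length and library total, its mean ranked 4467 among all rows in LA-Glu (10.03 ± 0.525) and 186 in LA-Met (922 ± 26.7).

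CB0166.t1 (1434 bases) had the third highest L, 2.80, with a W of 0.22. It stood at 398, 349 and 408 CPM in WT-Glu, 467, 453 and 442 CPM in WT-Met, 384, 367 and 428 CPM in LA-Glu, and 2931, 2833 and 2961 CPM in LA-Met. Its other 9 libraries lay close together and LA-Met was apart from them. The strain difference of CB0166.t1 on glucose was 0.03 on the log2 scale (SE 0.071) and did not pass the test (edgeR adjusted p = 0.765), while with library totals it was 0.25 and did (adjusted p = 0.00899). Its strain average was 1.35 (SE 0.05, edgeR adjusted p = 6.62e-16). This rests on the LA-Met level that also gave the high L, and is no separate result for CB0166.t1. CB0167.t1 (885 bases) carries the next identifier number, and this was the only pair of members with adjacent numbers, named after its values were seen. It stood at 21.3 to 25.8 CPM in WT-Glu, 20.9 to 26.2 CPM in WT-Met, 8.05 to 9.56 CPM in LA-Glu and 31.3 to 41.8 CPM in LA-Met. Unlike CB0166.t1 it was below wild type on glucose. The strain average of CB0167.t1 was -0.40 (SE 0.096, adjusted p = 0.00192), and with library totals it was -0.16 with an adjusted p of 0.218.

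CB0403.t1 (1341 bases) was far from wild type on both carbon sources, in opposite directions. It stood at 61.7, 47.3 and 55.99 CPM in WT-Glu, 64.0, 54.1 and 62.1 CPM in WT-Met, 10.5, 11.8 and 12.3 CPM in LA-Glu, and 132, 131 and 140 CPM in LA-Met. The wild-type groups overlapped, LA-Glu lay below and LA-Met above every wild-type library. With an L of 3.36, the second highest, and a W of 0.11, its strain average was -0.55 (SE 0.077, edgeR adjusted p = 2.19e-06), since the difference on glucose (-2.25, SE 0.11) was larger than that on methanol (1.16, SE 0.11).

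CB0096.t1 (3069 bases) was higher in LA001-14 on both carbon sources and rose further on methanol. It stood at 89.3, 87.8 and 101 CPM in WT-Glu, 92.9, 98.1 and 86.4 CPM in WT-Met, 206, 214 and 187 CPM in LA-Glu, and 524, 509 and 536 CPM in LA-Met. Both wild-type groups overlapped, and all 6 LA001-14 libraries lay above them. The strain average of CB0096.t1 was 1.81 (SE 0.052, edgeR adjusted p = 2.82e-18), next to that of CB3810.t1, with an L of 1.29 and a W of -0.02.

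CB2944.t1 (2079 bases) and CB5548.t1 (1308 bases) had the lowest strain averages and stood below wild type on both carbon sources. CB2944.t1 was a weakly expressed row, at 15.3, 26.2 and 21.1 CPM in WT-Glu, 28.1, 19.9 and 37.7 CPM in WT-Met, 2.57, 3.19 and 1.62 CPM in LA-Glu, and 7.24, 7.41 and 8.34 CPM in LA-Met. Its LA-Glu libraries held 24, 37 and 15 reads, and its LA-Met libraries stayed below every wild-type library. The strain average of CB2944.t1 was -2.47 (SE 0.22, edgeR adjusted p = 6.61e-11). CB5548.t1 stood at 277, 301 and 312 CPM in WT-Glu, 519, 495 and 532 CPM in WT-Met, 79.6, 78.7 and 74.2 CPM in LA-Glu, and 215, 192 and 195 CPM in LA-Met. It had the highest W of all members, 0.784, and no groups of its libraries overlapped, so its wild-type methanol libraries also lay above its wild-type glucose libraries. Its L was 1.28, and its strain average was -1.65 (SE 0.042, adjusted p = 4.61e-18).

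The members with the highest mean FPKM in LA-Met were CB1727.t1 (912 bases) and CB0253.t1 (447 bases). The choice was made on that group alone and does not make them the most abundant members in the other groups. CB1727.t1 reached 4276 ± 346 FPKM in WT-Glu, 6512 ± 180 in WT-Met, 3537 ± 117 in LA-Glu and 7613 ± 220 in LA-Met, where it ranked 6 among all rows. In TMM-scaled CPM its methanol levels overlapped between the strains, at 6572 to 7007 in wild type and 6250 to 6973 in LA001-14, and its W was 0.72. The strain average of CB1727.t1 was -0.28 (SE 0.074, edgeR adjusted p = 0.000893) and, with library totals, -0.02 with an adjusted p of 0.614. CB0253.t1 stood at 2502 ± 159 FPKM in WT-Glu, 1606 ± 61.9 in WT-Met, 1560 ± 166 in LA-Glu and 3970 ± 6.17 in LA-Met. It was lower on methanol in wild type, with a W of -0.53, and higher in LA001-14, with an L of 1.33. Its strain differences of -0.90 on glucose (SE 0.056) and 1.03 on methanol (SE 0.056) nearly cancelled, and its strain average of 0.06 (SE 0.04) did not pass the test (adjusted p = 0.289). With library totals the strain average of CB0253.t1 was 0.31 and passed it (adjusted p = 8.84e-06).

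**Figure D5:**
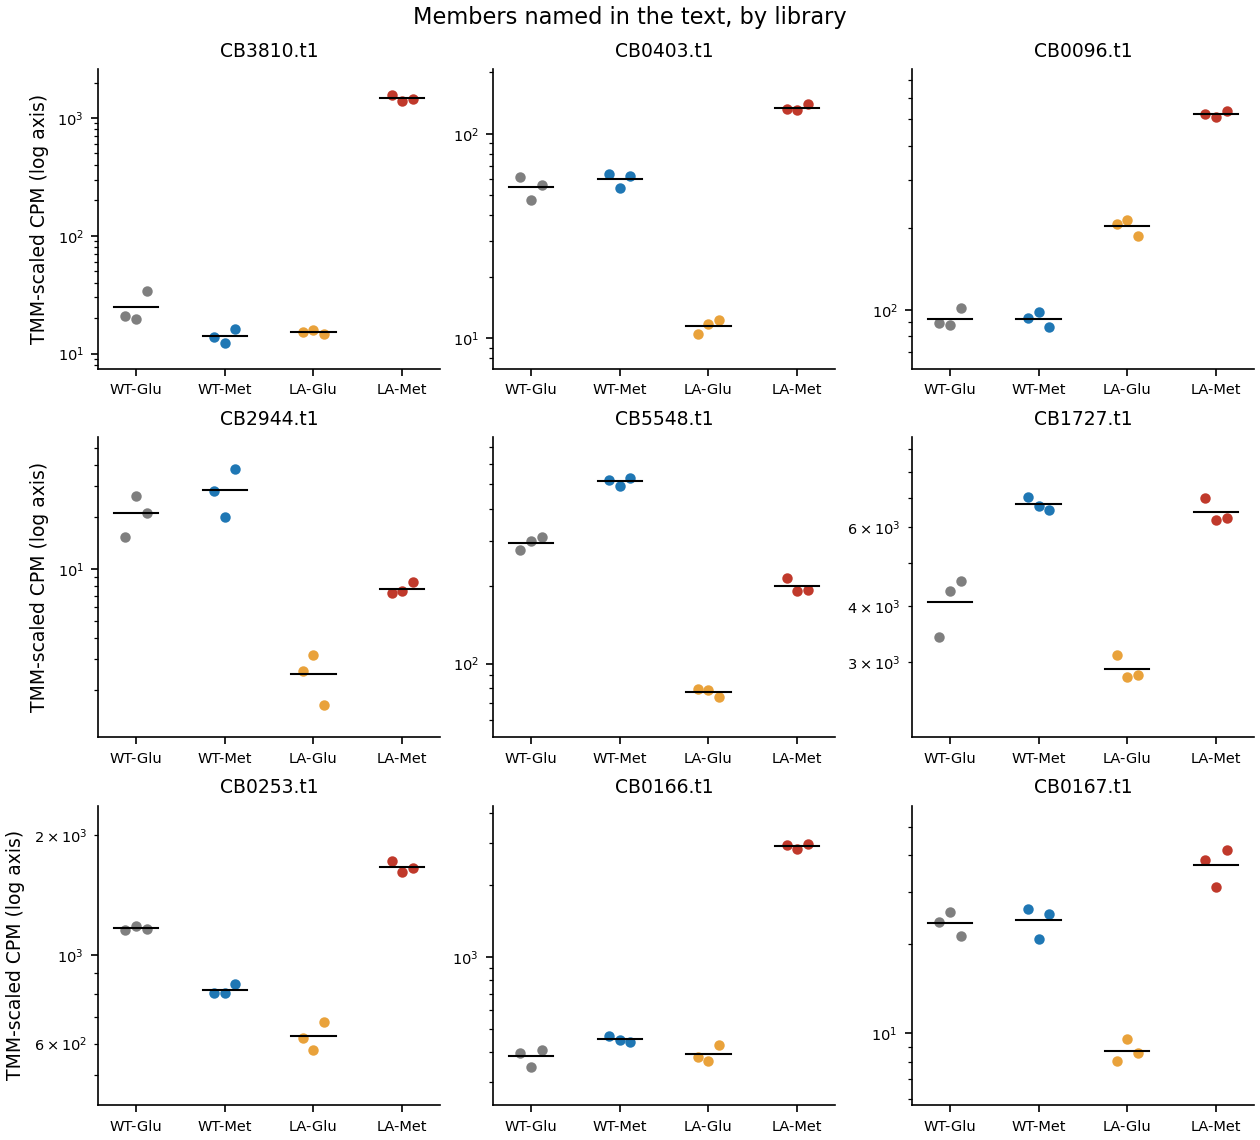
TMM-scaled CPM of the 9 members named in the text in each library (log axis, points are libraries, lines the group means). CB3810.t1 and CB0166.t1 stand out in LA-Met alone, while CB0403.t1, CB2944.t1, CB5548.t1 and CB0167.t1 have their lowest values in LA-Glu, as do CB1727.t1 and CB0253.t1.

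Averaged over the 12 libraries the members were more abundant than the typical row, and more of them were short. The rule did not set coding length, but the levels it favours in LA-Met and LA-Glu enter the abundance. The mean FPKM over the 12 libraries had a median of 76.5 for the members, with quartiles of 28.0 and 263, against 39.4, 18.1 and 94.3 for the kept rows. In LA-Glu alone the members were not more abundant, with a median FPKM of 39.3 against 40.5. The medians were 63.9 against 34.1 in WT-Glu, 63.1 against 33.6 in WT-Met and 103 against 39.3 in LA-Met. The pseudocount in the rule lowers the ratios of weak rows. Their coding length had a median of 1356 bases, with quartiles of 629 and 2183, against 1467, 906 and 2330. Of the members, 23 were shorter than 600 bases (23.5%, against 11.7% of kept rows). The largest sub-pattern, lower on glucose, had a median length of 987 bases, while the 12 members of the higher-on-methanol sub-pattern had 2072. Replicate spread was much like that of other rows, with a median biological coefficient of variation of 0.0826 against 0.0901. These are descriptions with no test.

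The members were scattered over the identifier numbers. Apart from CB0166.t1 and CB0167.t1 none had a member at the next number, and 2.04% of members had such a neighbour against 3.54% of all kept rows. The 176 kept rows next to a member that were no members themselves had a median L of 0.00 and a median W of -0.04, and 5 of them (2.84%, against 5.72% of kept rows) had an L of at least 1. Whether the numbers follow the order of genes on the chromosomes is not given in the sources used here.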

How the data were processed

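Reads of 12 libraries were processed by the authors before deposit. Bowtie2 2.5.4 is named in the submitters' processing notes, while no read counter, genome build or annotation is given in the sources used here. The authors deposited whole-number read counts per coding sequence without normalization, and FPKM values, per the file headers. The deposited FPKM values equalled the count divided by coding length and column sum with a largest deviation of 2.4e-06 percent, and hence hold no composition factor. Trizol-extracted total RNA was treated with DNase on a column, per the labels' protocols.

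Depth ranged from 8045977 to 14107813 counts. Members were found by the rule given at the start of the report. Counts were tested with edgeR 4.0.16 (R 4.3.3): filterByExpr kept 5466 of 5712 rows, all 98 members among them, libraries were scaled by TMM, and a quasi-likelihood model with 4 group means was fitted over the 12 libraries with robust estimation. The 4 contrasts were the strain average, the strain difference on each carbon source, and the strain difference in the methanol response. SEs come from the spread of log2 CPM between replicates with 2 reads added. Scripts were tested on simulated data. Alternatives were RLE, upper quartile, library totals, no filter, DESeq2 1.42.0, a replicate term and leaving out each library.

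The members and lists were chosen with earlier results of these data known. Identifiers were named by a rule: the 2 members with the highest L and LA-Met above all other libraries, the 2 with the highest and the 2 with the lowest called strain average, and the 2 with the highest FPKM in LA-Met. CB0166.t1 and CB0167.t1 were added after their values were seen.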

Additional observations from a re-analysis of the deposited data

Results flagged for a closer look

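The methanol response differed between the strains, by a test of the difference itself, for 93 of the 98 members, all higher in LA001-14. Over all 5466 rows tested 30.8% were higher and 27.9% lower. The rule chose them on the same ratios, so this was favoured by the choice. In edgeR's quasi-likelihood test the adjusted p of this difference was 5.47e-15 for CB3810.t1, 6.60e-15 for CB0403.t1, 7.83e-16 for CB0166.t1, 1.06e-13 for CB0253.t1, 1.96e-10 for CB0096.t1 and 1.45e-08 for CB0167.t1. It was 4.91e-05 for CB5548.t1, 0.00677 for CB1727.t1 and 0.0114 for CB2944.t1. No test for a single outlying library was made on single genes, since each group held 3.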

How the results depend on the processing

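Library totals in place of TMM moved 3 counts of called members past 1.5 times. They gave 29 members with a higher strain average (13 by TMM), 5 higher on glucose (3 by TMM) and 9 lower on methanol (20 by TMM). By library totals the matching shares of all rows were 50.6%, 42.7% and 20.6%. The other counts stayed within 1.5 times under all alternatives run. Leaving out each library in turn gave 60 to 63 members with a lower and 11 to 18 with a higher strain average. Of all rows, 32.9% to 34.6% were lower and 32.0% to 36.9% higher. On glucose 83 to 86 members were lower and 3 to 4 higher (all rows 29.0% to 31.5% and 28.0% to 33.6%). On methanol 40 to 49 were higher and 17 to 23 lower (all rows 29.9% to 34.7% and 29.8% to 33.4%). The methanol response was higher in 90 to 94 members and in 28.9% to 30.1% of all rows. The rule gave 91 to 107 members without 1 library, with 85 to 97 of the 98 kept. It gave 79 with a pseudocount of 5, 73 with a mean count of at least 200, 107 with a minimum of 10, and 124 on TMM-scaled CPM with no median subtracted, sharing 75, 72, 98 and 98 of the members. With the replicate number as a replicate block, 62 members had a lower and 12 a higher strain average, where 34.0% and 33.1% of all rows did. Same-numbered libraries did not deviate together (correlations across genes from -0.35 to 0.19, 2 of 18 above 0.1), and a library correlated best with its own number in 12 of 36 cases, so the numbers were not taken to pair the libraries. Among the named members, in all 4 comparisons, 2 small differences that did not pass the test by TMM changed sign. That of CB1727.t1 on methanol was 0.0026 by the upper quartile and 0.23 by library totals, where it passed with an edgeR adjusted p of 0.00194 (-0.05 by TMM). That of CB0166.t1 on glucose ranged from -0.038 to 0.106 when each library was left out, below 0 without WT-Glu replicate 2 or LA-Glu replicate 3 (0.03 with all libraries). Depth limits the weak rows most, such as CB2944.t1 with 15 to 37 reads per LA-Glu library.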
